A study of Mus musculus with 5 samples.

Results

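The smooth muscle nuclei of mouse mesenteric white adipose tissue (MWAT) numbered 3146, which was 15.9% (95% binomial interval 15.4 to 16.4) of the 19768 MWAT nuclei retained and part of 75891 retained nuclei in the series. They were chosen by their own transcript counts. A nucleus needed at least 200 genes and at most 10% mitochondrial counts. It needed at least 6 unique molecular identifiers (UMIs, each standing for 1 captured transcript) summed over 7 contractile genes (Myh11, Actg2, Cnn1, Lmod1, Synpo2, Mylk and Acta2), with at least 2 of Myh11. It could hold at most 1 UMI summed over Pdgfra, Flt1, Ptprb, Mrc1, Upk1b, Acvr1c, Cdh19, Ano1, Rgs9 and Esrrb, which mark stromal, endothelial, immune, mesothelial, adipocyte, glial, interstitial or neuronal nuclei. Within the chosen nuclei, 2360 nuclei with at least 1 UMI of Grm8 or Ryr3 (the positive nuclei) were set against 786 nuclei with 0 UMIs of both (the negative nuclei). Levels of the 7 contractile genes, and of Grm8 and Ryr3 between those sets, were fixed by this choice and are descriptions.

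The series profiled 5 white adipose depots by droplet-based single-nucleus RNA sequencing of transcript 3′ ends: MWAT, subcutaneous (SWAT), epididymal (EWAT), perirenal (NWAT) and peri-heart (HWAT). All mice were 10-week-old males on chow diet, with no genetic change or drug named. The protocols name C57BL/6J mice throughout. The strain entries differ from that in 3 depots, with MWAT given as C57BL/7J, perirenal tissue as C57BL/8J and peri-heart tissue as C57BL/9J. Mice were perfused with heparin before dissection, and lymph nodes were taken out of MWAT and SWAT. Tissue of 10 mice was pooled for MWAT, of 6 mice each for SWAT, EWAT and NWAT, and of 20 mice for HWAT, and each pool gave 1 library. Depot and library therefore cannot be told apart, no p-value is given, and the 95% intervals cover counting error only. The MWAT library held 19770 barcodes and 29739505 UMIs, against 12324 to 18514 barcodes and 23313545 to 43855063 UMIs in the others. Of the MWAT barcodes, 285 also occurred in another library, and 43 of these belonged to smooth muscle nuclei.

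Smooth muscle shortens when calcium, through calmodulin, activates myosin light chain kinase (Mylk), which phosphorylates myosin built on the heavy chain Myh11. Many of its contractile genes are driven by serum response factor (SRF) with its partner myocardin (Myocd), bound at a short sequence called the CArG box. The mesentery carries the vessels of the gut and runs up to the gut wall, so that vascular smooth muscle and visceral smooth muscle lie close together. Visceral smooth muscle of the gut contracts to acetylcholine through the muscarinic receptors Chrm2 and Chrm3. Grm8 encodes a metabotropic glutamate receptor, Ryr3 a ryanodine receptor that releases calcium from the sarcoplasmic reticulum, and Dpp10 a partner subunit of voltage-gated potassium channels.

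Promoter windows are shown for 3 contractile genes because they hold letters close to the CArG box. Windows of 300 bases (250 before to 50 after the annotated start) came from RefSeq on GRCm38.p6. Of 33 genes (the 7 of the choice and 26 further contractile apparatus genes), 29 had at least 1 window, 37 windows in all. The CArG box was searched on both strands, and its pattern reads the same on both. It was found without a mismatch in 6 of the 37 windows (16.2%), against 535 of all 32851 windows (1.63%). With at most 1 mismatch it was found in 15 of the 37 (40.5%), against 21.1% of all windows. Of the 7 genes of the choice, 5 had a window. Of these 5 windows, 0 held the box without a mismatch and 2 held it with at most 1. Overlapping windows of 1 gene were counted separately, so that 1 match in Ldb3 entered more than once. Capitals mark matches with at most 1 mismatch, and each sequence reads 5′ to 3′ on the strand of the gene.
Acta2 (chr19:34255324-34255623, minus strand): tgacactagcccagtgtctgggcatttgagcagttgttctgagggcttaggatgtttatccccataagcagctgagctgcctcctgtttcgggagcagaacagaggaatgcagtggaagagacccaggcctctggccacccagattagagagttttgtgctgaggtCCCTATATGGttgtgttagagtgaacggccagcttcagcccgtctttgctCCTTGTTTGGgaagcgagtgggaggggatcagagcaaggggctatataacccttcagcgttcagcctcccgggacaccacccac
Lmod1 (chr1:135324563-135324862, plus strand): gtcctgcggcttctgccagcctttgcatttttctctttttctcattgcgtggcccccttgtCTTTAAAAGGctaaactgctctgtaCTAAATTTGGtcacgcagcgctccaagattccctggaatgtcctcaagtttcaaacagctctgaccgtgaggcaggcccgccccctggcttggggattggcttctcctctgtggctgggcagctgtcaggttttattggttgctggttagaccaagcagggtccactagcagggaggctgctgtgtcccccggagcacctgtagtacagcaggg
Myl9 (chr2:156775214-156775513, plus strand): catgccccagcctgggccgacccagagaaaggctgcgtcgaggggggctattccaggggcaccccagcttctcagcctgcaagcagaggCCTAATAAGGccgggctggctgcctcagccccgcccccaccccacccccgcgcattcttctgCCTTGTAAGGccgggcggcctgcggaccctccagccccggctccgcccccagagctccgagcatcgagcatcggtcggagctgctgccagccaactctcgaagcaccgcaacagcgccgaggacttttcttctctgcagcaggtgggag
The Acta2 matches began 84 and 34 bases before the start, and those of Lmod1 189 and 164 bases before it, each with 1 mismatch. Myl9, a regulatory myosin light chain, had a match without mismatch beginning 161 bases before its start and a second with 1 mismatch 99 bases before it. These are matches of letters, and no binding was measured.

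Each chosen nucleus was shallow. The median was 1372 UMIs and 860 genes, with 500 to 14471 UMIs per nucleus and 0.292% mitochondrial counts at the median. The 7 contractile genes gave a median of 22 UMIs per nucleus, between 6 and 241. Myh11, on chromosome 16 from 14194535 to 14291372 (GENCODE vM21, GRCm38), had a median of 5 UMIs per nucleus. A UMI of Acta2, the vascular-type smooth muscle actin, was found in 96.5% of the nuclei, one of Mylk in 90.7%, and one of Actg2, the enteric-type smooth muscle actin, in 82.6%. The scaffold protein Synpo2 reached 85.2%, calponin Cnn1 65.1% and leiomodin Lmod1 33.5%.

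The label of smooth muscle was checked on genes that the choice did not use. Levels are given as CPM, the UMIs of a gene relative to all UMIs, after adding up all nuclei of a set. Myocd stood at 336 CPM in the smooth muscle nuclei and 28.3 CPM in the 16622 other MWAT nuclei. The L-type calcium channel subunit Cacna1c had 2151 CPM in smooth muscle nuclei and 158 CPM in the others. Kcnma1, a calcium-activated potassium channel, had 1311 CPM against 100.4 CPM, and the intermediate filament gene Des 503 CPM against 71.9 CPM, each with smooth muscle nuclei first. These 4 genes were thus 7.00 to 13.6 times higher in the smooth muscle nuclei. The given marker Dpp10 had 605 CPM (583 to 628) in smooth muscle nuclei, a ratio of 17.7 (16.4 to 19.2) to the other MWAT nuclei.

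Of 13692 genes with at least 100 counts, 6.1% were at least 2-fold higher in smooth muscle nuclei than in the other MWAT nuclei and 23.5% at least 2-fold lower. Among the 25 contractile apparatus genes with enough counts, 23 were higher and 0 lower, with Cap2 at 11.9-fold, the PDZ and LIM protein gene Pdlim3 at 10.1-fold and transgelin (Tagln) at 8.36-fold. Tns1 did not pass, at 1.80-fold. The list's median log2 ratio was 2.48, against -0.24 over all genes. Calcium handling genes were higher for 15 and lower for 4 of 32, with the channel subunit Cacnb2 at 10.1-fold and the calcium pump Atp2b4 at 4.43-fold. Since the choice of nuclei picked smooth muscle, these counts describe what was picked. The highest ratios beyond the chosen genes were those of the dynein heavy chain gene Dnah5 (30.8 CPM in smooth muscle nuclei and 1.32 CPM in others), Dpp10, the hyaluronan-binding gene Cemip (155 and 9.57 CPM), Nipal4, Atcayos, the G protein regulator Rgs1, Cpa6, the phosphodiesterase Pde1c, Fam189a1 and the RNA-binding gene Rbm24, 13.8 to 23.3-fold. Dct, Col6a6, Crnde and Pik3r5 had 0 counts in smooth muscle nuclei and 135 to 140 counts in the other nuclei.

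Markers of other cell types were low in the smooth muscle nuclei but not at 0. All 10 adipocyte, all 10 mesothelial, all 10 endothelial and all 10 immune markers with enough counts were at least 2-fold lower than in the other MWAT nuclei. Over all genes 23.5% were lower. The choice had left out nuclei by genes of these cell types while the other MWAT nuclei kept them, so these counts describe what was picked. Other lists were less uniform, with 5 of 10 stromal progenitor, 5 of 7 Cajal-type and 3 of 5 glial markers lower. Gjc1 (2.41-fold) and Cacna1h (5.61-fold) of the Cajal-type list were higher, as were both striated muscle markers with enough counts, Ckm (8.58-fold) and the cardiac troponin Tnnt2 (8.06-fold). Adiponectin (Adipoq) stood at 205 CPM in smooth muscle nuclei, against 1610 CPM in MWAT adipocyte nuclei, 121 CPM in mesothelial nuclei and 127 CPM in endothelial nuclei. Single defining markers of enteric neurons (Elavl4, 2.73 CPM) and glia (Sox10, 3.35 CPM) were near 0. So were those of lymphatic endothelium (Prox1, 3.98 CPM) and striated muscle (Ttn, 0.210 CPM). Other members of these lists were higher, and the lists summed to 98.5, 244, 102 and 177 CPM in the same order. In the other MWAT nuclei the sums were 500, 649, 396 and 28.5 CPM. Ckm, the muscle creatine kinase listed under striated muscle, had 104 CPM in smooth muscle nuclei while the striated myosins Myh1 and Myh4 had 0 counts there. Transcripts of the gut lining summed to 748 CPM over 15 genes in smooth muscle nuclei, against 1964 CPM in the other MWAT nuclei. A UMI of Myh11 was found in 16.0% of adipocyte, 15.2% of mesothelial and 15.4% of endothelial nuclei of MWAT, so a single Myh11 UMI did not set smooth muscle nuclei apart.

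Against the most similar MWAT nuclei, the smooth muscle nuclei had the highest levels of the genes plotted by set. For the contractile genes among them the choice fixed this order. Grm8 had 1107 CPM (1077 to 1137) in smooth muscle nuclei, 539 CPM (465 to 622) in 213 mural nuclei (at least 3 UMIs over Notch3, Rgs5, Pdgfrb, Abcc9 and Cspg4), 158 CPM in 162 Rgs9 Esrrb nuclei and 57.1 CPM in 277 Ano1 Kit nuclei. Chrm2 had 1821 CPM in smooth muscle nuclei, 761 CPM in mural, 571 CPM in Rgs9 Esrrb and 292 CPM in Ano1 Kit nuclei. Chrm3 ran the other way, with 165 CPM (153 to 177) in smooth muscle nuclei, 664 CPM (576 to 761) in Rgs9 Esrrb nuclei and 521 CPM (454 to 594) in Ano1 Kit nuclei. Kit, the receptor that marks the interstitial cells of Cajal, had 12.4 CPM in smooth muscle nuclei and 984 CPM in Ano1 Kit nuclei. The Ano1 Kit and Rgs9 Esrrb sets were chosen on UMIs of the genes in their names, so this order of Kit was fixed by the choice. Kcnn3, which marks Pdgfra interstitial cells, had 10.3 CPM in smooth muscle nuclei. It had 2155 CPM in 165 Pdgfra Kcnn3 nuclei, a set chosen on it. Of the genes that chose the mural set, Rgs5 had 362 CPM and Abcc9 420 CPM in smooth muscle nuclei with Grm8 or Ryr3. In the mural set 33.8% of nuclei had a UMI of Grm8 or Ryr3. Whether that set held smooth muscle nuclei that the choice missed was not tested, so its levels may not be those of vascular mural cells.

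**Figure D1:**
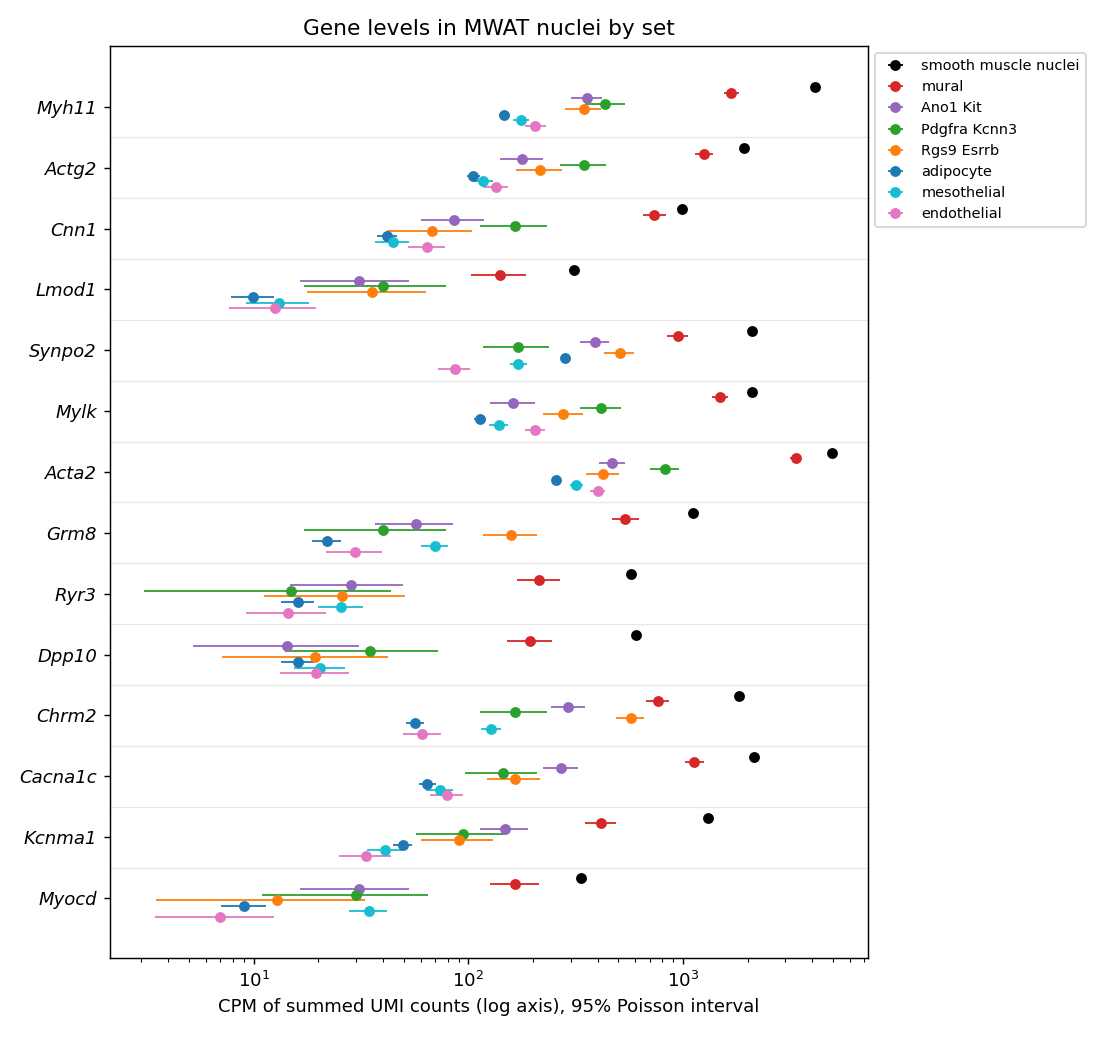
Summed UMI counts as CPM on a log axis, with 95% Poisson intervals, for contractile, channel and receptor genes in the smooth muscle nuclei of MWAT (black) and 7 other sets of MWAT nuclei. The smooth muscle nuclei lie to the right of every other set for each gene plotted, with mural nuclei next. For the contractile genes the choice fixed this order, and Chrm3, which ran the other way, is not plotted. Adipocyte, mesothelial and endothelial nuclei lie far to the left.

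The thresholds of the choice fell within a gradual range. In the 106 smooth muscle nuclei with 6 or 7 contractile UMIs, Chrm2 was at 1368 CPM and Cacna1c at 1348 CPM, and 40.6% had a UMI of Grm8 or Ryr3. In 73 nuclei just outside, with 4 or 5 contractile UMIs, the values were 1051 CPM, 1007 CPM and 37.0%. The 461 chosen nuclei with 2 Myh11 UMIs had 1570 CPM of Chrm2, against 1207 CPM in 334 nuclei with 1 Myh11 UMI. Nuclei with 1 UMI of the other-cell genes (694 chosen nuclei) had 1527 CPM of Chrm2, against 997 CPM in 221 nuclei left out for holding 2.

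Grm8 (chromosome 6, 27275119 to 28135178) was found in 1797 smooth muscle nuclei (57.1%) and Ryr3 (chromosome 2, 112631355 to 113217096) in 1591 (50.6%). Both were found in 1028 nuclei (32.7%), Grm8 alone in 769 (24.4%), Ryr3 alone in 563 (17.9%) and neither in 786 (25.0%). Ryr3 was found in 57.2% of the nuclei with Grm8 and in 41.7% of those without it. The share with either gene was 75.0% (73.5 to 76.5). It was 4.08% in adipocyte, 8.20% in mesothelial and 3.77% in endothelial nuclei of MWAT, whose median depths were 1671, 1490 and 1228 UMIs against 1372 in smooth muscle nuclei. After thinning each nucleus to 1000 UMIs, which left out 696 shallower smooth muscle nuclei, the share was 70.1% (68.2 to 71.9) of 2450 nuclei, with 2.41%, 6.21% and 2.10% in the 3 other sets in the same order.

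The split moved with depth. Nuclei from 500 to below 1000 UMIs were positive in 60.3%, those below 1500 in 74.0%, those below 2000 in 83.2%, those below 3000 in 86.6% and those of 3000 or more in 80.0%, each bin starting where the one before ended. The positive nuclei had a median of 1436 UMIs and the negative nuclei 1154. A single UMI of Grm8 or Ryr3 put 652 nuclei (20.7%) in the positive set. At this depth 0 UMIs does not show that a nucleus lacks the transcript, and how many negative nuclei were missed in this way was not tested.

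**Figure D2:**
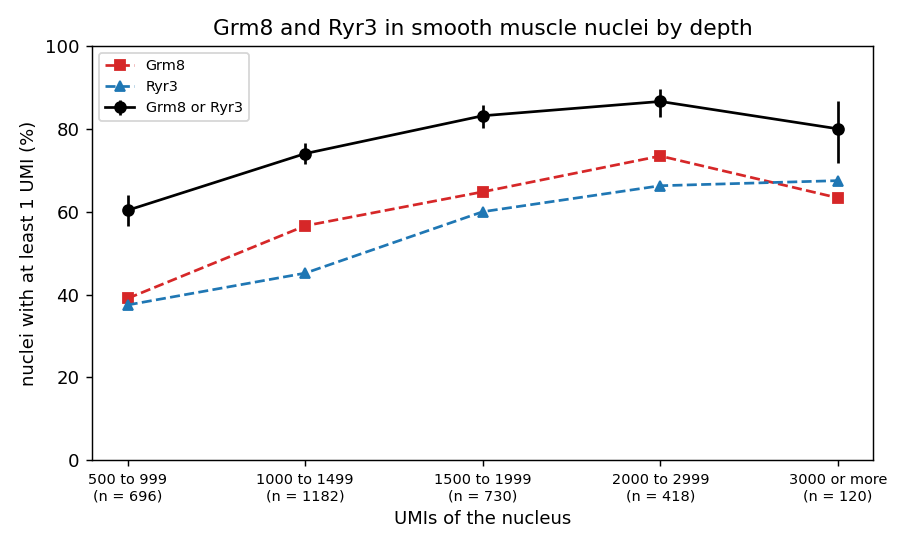
Percentage of MWAT smooth muscle nuclei with at least 1 UMI of Grm8, of Ryr3 or of either, by the number of UMIs in the nucleus (number of nuclei under each bin, 95% binomial intervals for either gene). The share with either gene is 60.3% in the shallowest bin and 86.6% from 2000 to below 3000 UMIs.

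Positive nuclei had more of some receptor, channel and guidance transcripts than negative nuclei and less of others, while their contractile genes differed by less than 1.5-fold. The tachykinin receptor Tacr1, which answers substance P, had 74.3 CPM in positive nuclei and 18.3 CPM in negative nuclei, a ratio of 4.07 (2.56 to 6.86). Esrrg, an orphan nuclear receptor, had 65.7 CPM in positive and 15.4 CPM in negative nuclei, 4.28-fold (2.58 to 7.60). Dpp10 had 712 CPM in positive and 224 CPM in negative nuclei, 3.18-fold (2.78 to 3.65). Of 7191 genes with at least 100 counts, 571 (7.94%) were at least 1.5-fold higher in positive nuclei and 838 (11.7%) at least 1.5-fold lower, and the interval lay wholly past 1.5-fold for 75 and 258 of them.

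None of the 25 contractile apparatus genes measured was 1.5-fold higher or lower in positive nuclei, against the 7.94% and 11.7% over all genes. Many of the calls over all genes were uncertain, with intervals wholly past 1.5-fold for only 75 and 258 of 7191. Both sets had also met the same minimum of contractile UMIs, so the 0 of 25 is a description. The largest of their ratios were those of Ppp1r12a, the targeting subunit of myosin phosphatase (2358 CPM in positive and 1586 CPM in negative nuclei, 1.49-fold), and Pdlim3 (1454 and 978 CPM, 1.49-fold). Tagln had 3985 CPM in positive and 5357 CPM in negative nuclei, a ratio of 0.744 (0.721 to 0.767), and the light chain Myl6 0.743. Of the genes that chose the nuclei, Myh11 had 4259 CPM in positive and 3685 CPM in negative nuclei and Acta2 4792 and 5564 CPM. Myocd had 349.7 CPM in positive and 286 CPM in negative nuclei, and among 22 SRF, myocardin and muscle transcription factor genes the 1 past the fold was Zfhx3, lower at 0.499.

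Receptors and signalling enzymes were higher for 5 and lower for 1 of 22 measured, beside 7.94% higher and 11.7% lower over all genes. Tacr1, Pde1c (337 CPM in positive and 104 CPM in negative nuclei, 3.25-fold), the phosphodiesterases Pde4d and Pde7b (1.57-fold each) and the phospholipase Plcb1 (1.55-fold) were higher. The endothelin receptor Ednra was lower, with 21.7 CPM in positive and 48.0 CPM in negative nuclei. Chrm2 had 1936 CPM in positive and 1409 CPM in negative nuclei, 1.37-fold (1.30 to 1.45), and Chrm3 had 165 and 161 CPM, so neither muscarinic receptor passed 1.5-fold. Among 29 calcium handling genes, 5 were higher and 1 lower, beside the same shares over all genes. The second ryanodine receptor Ryr2 had 694 CPM in positive and 426 CPM in negative nuclei (1.63-fold), the calcium-binding store protein gene Casq2 was 2.08-fold higher and the sodium-calcium exchanger Slc8a1 1.52-fold higher, and Trpc6 was lower at 0.470.

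Adhesion and guidance genes best known from neurons were higher for 10 and lower for 5 of 25 measured, beside 7.94% higher and 11.7% lower over all genes. Their median log2 ratio was 0.40 against 0.03 over all genes. The contactin Cntn1 had 67.6 CPM in positive and 19.2 CPM in negative nuclei (3.52-fold). The ephrin receptor Epha7 had 312 and 114 CPM (2.73-fold), the Slit receptor Robo2 36.7 and 13.4 CPM (2.73-fold) and the secreted semaphorin Sema3a 373 and 183 CPM (2.04-fold). Slit3 was lower, at 115 CPM in positive and 301 CPM in negative nuclei (0.383). The adhesion genes Nrxn3 (0.480), Nlgn1 (0.555) and Negr1 (0.633) were lower as well. Of 13 potassium and chloride channel genes measured, 2 were higher and 1 lower. Gja1, the gap junction protein connexin 43, had 411 CPM in positive and 193 CPM in negative nuclei (2.13-fold, 1.83 to 2.48). The potassium channel partner Kcnip1 was 1.73-fold higher and Sntg2, a syntrophin of the dystrophin complex, 1.63-fold higher. The remaining genes with the highest ratios, 3.32 to 4.05-fold, were the kinesin gene Kif26b, the transcription cofactor Eya1, the cadherins Cdh20 and Dsg2, the demethylase Kdm1b, the clock factor Arntl2 and the nucleoporin Nup50.

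**Figure D3:**
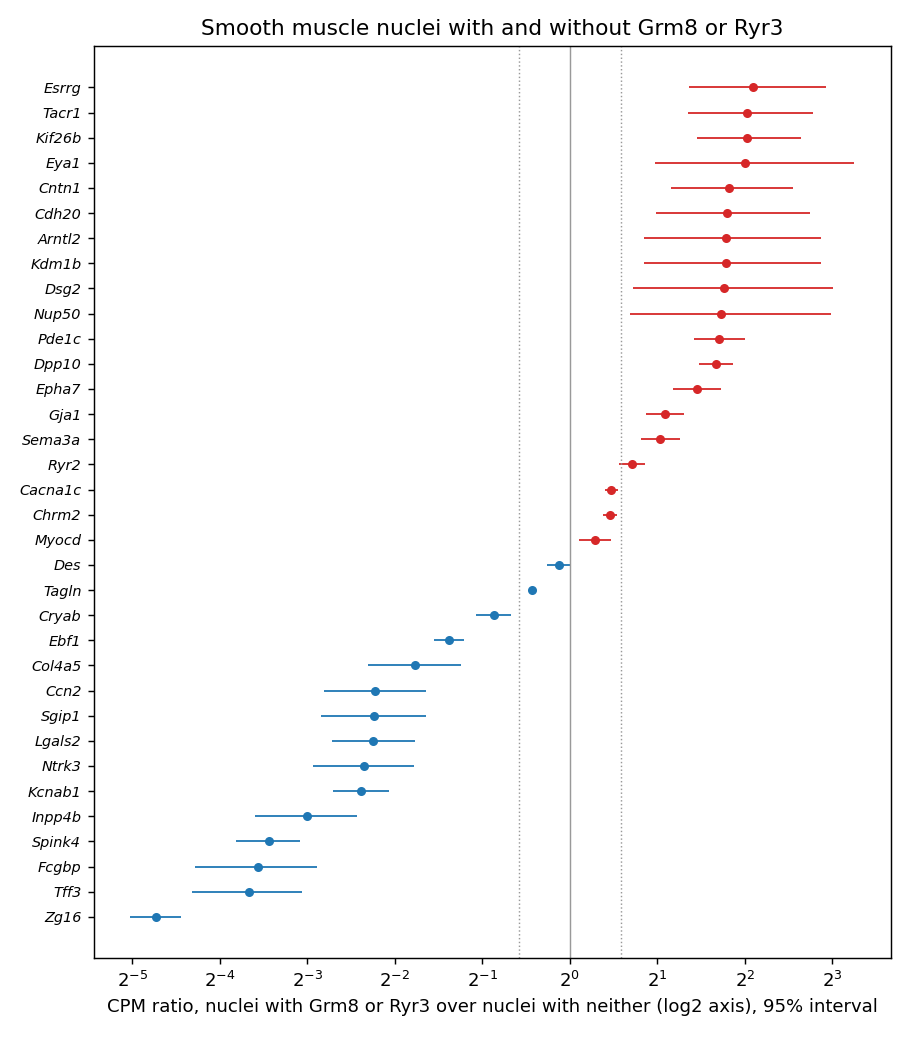
Ratio of CPM in smooth muscle nuclei with Grm8 or Ryr3 over those with neither, on a log2 axis with 95% intervals, for the named genes. The solid line marks equal levels and the dotted lines 1.5-fold; Cacna1c, Chrm2, Myocd, Des and Tagln lie between the dotted lines, Esrrg, Tacr1 and Kif26b lie highest and Zg16 lowest.

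These ratios depended on the splitting gene and on depth. Split by Ryr3 alone, Kif26b was 1.28-fold, Eya1 1.11-fold, Cntn1 1.34-fold, Kdm1b 1.23-fold and Nup50 1.40-fold, under 1.5-fold, and Esrrg and Tacr1 were 1.58-fold and 1.53-fold. With nuclei thinned to 1000 UMIs, Esrrg was 2.48-fold and Kif26b 2.22-fold.

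Genes lower in positive nuclei fell into separate groups. Inpp4b, a phosphoinositide phosphatase, had 10.2 CPM in positive and 81.6 CPM in negative nuclei (0.125). Kcnab1, a potassium channel subunit, had 36.7 and 192 CPM (0.191), the neurotrophin receptor Ntrk3 12.1 and 61.5 CPM (0.196), Sgip1 11.8 and 55.7 CPM (0.212) and the matricellular gene Ccn2 12.3 and 57.6 CPM (0.214). Much of this lay in the 62 nuclei of a sub-cluster described below (number 5), 50 of which were negative. Without them, an alternative added after the data were seen, the ratios were 0.252 (0.143 to 0.443) for Inpp4b, 0.395 for Kcnab1, 0.538 (0.288 to 1.05) for Ntrk3, 0.345 for Sgip1 and 0.446 for Ccn2. Slit3 then stood at 0.658. Adipocyte markers were lower for 7 and higher for 0 of 10, beside 11.7% lower and 7.94% higher over all genes. Fasn, the fatty acid synthase, had 131 CPM in positive and 389 CPM in negative nuclei, and Adipoq 153 and 390.0 CPM. The summed level of the adipocyte markers was 1156 CPM in positive and 2253 CPM in negative nuclei. Nuclei with over 2% mitochondrial counts made up 1.61% of the positive and 10.3% of the negative nuclei. Within those nuclei the adipocyte transcript Fabp4 had 13264 CPM in the positive and 31313 CPM in the negative ones. With nuclei over 2% left out, 344 genes were higher and 448 lower, on fewer nuclei and counts. The part of adipocyte transcripts and of mitochondrial counts in the differences was not tested otherwise.

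Gut lining genes were lower for 7 of 8 in positive nuclei, beside 11.7% of all genes, but 1 nucleus decided the lowest ratios. It held 1111 gut lining UMIs of its 4861 UMIs, was among the negative nuclei and was not marked as a doublet. It carried 797 of the 948 Zg16 UMIs, 95 of 132 Tff3 UMIs, 230 of 335 Spink4 UMIs and 73 of 103 Fcgbp UMIs of all smooth muscle nuclei. With it, Zg16 had 30.3 CPM in positive and 802 CPM in negative nuclei (0.0378), and without it the ratio was 0.826. Spink4 was at 0.0920 with that nucleus and 1.05 without it. For Lgals2, 72 of the 90 UMIs of negative nuclei likewise lay in 1 nucleus. Without the nucleus highest in each gene, Tff3 was at 1.01, Fcgbp at 1.11 and Lgals2 at 1.05. Defa24, a Paneth cell defensin of a family with near-identical copies, had 109 CPM in positive and 233 CPM in negative nuclei (0.467), with 141 UMIs in 1 negative nucleus, and its ratio was 1.11 without it. The antimicrobial lectins Reg3b and Reg3g were at 0.348 and 0.331, and at 0.454 and 0.432 without the highest nucleus of each.

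The 769 nuclei with Grm8 alone were set against the 563 with Ryr3 alone, a comparison added after the split had been seen. Their median depths were 1318 and 1314 UMIs. Of 3674 genes with at least 100 counts, 128 (3.48%) were at least 1.5-fold higher and 175 (4.76%) at least 1.5-fold lower in the Grm8-only nuclei. The interval lay wholly past 1.5-fold for 28 and 47 of them. Gja1 had 442 CPM in Grm8-only and 152 CPM in Ryr3-only nuclei (2.91-fold, 2.38 to 3.58). Pde1c had 389 and 95.2 CPM (4.09-fold), the ephrin receptor Epha3 142 and 32.1 CPM (4.43-fold), Tacr1 76.2 and 26.0 CPM (2.93-fold) and Dpp10 661 and 298 CPM (2.22-fold). The heparan sulfate sulfotransferase Hs6st3, Cntn1, Cttnbp2, Kif26b, Sorbs2 and Khdrbs2 were 2.54 to 3.40-fold higher.

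Ryr3-only nuclei had more of several receptors and transcription factors. The serotonin receptor Htr2b had 41.7 CPM in Grm8-only and 137 CPM in Ryr3-only nuclei (0.304), Chrm3 128 and 226 CPM (0.565) and the nucleotide receptor P2ry14 21.8 and 158 CPM (0.138). Chrm2 had 1647 CPM in Grm8-only and 2467 CPM in Ryr3-only nuclei, a ratio of 0.668 (0.626 to 0.712) that lay just inside the 1.5-fold bound. The calcium channel subunit Cacna1d had 34.5 and 113 CPM (0.306) and the cyclic GMP phosphodiesterase Pde5a 152 and 366 CPM (0.416). Lowest were Zfp804b (0.0392), the semaphorin Sema3e (9.97 CPM in Grm8-only and 190.4 CPM in Ryr3-only nuclei, 0.0524) and the synaptic adhesion gene Nrxn3 (0.0935), followed by Prdm6, Flrt2, Pdgfc, Sox5, Thsd4 and Sox6 (0.206 to 0.261). Of 19 muscle transcription factor genes, 4 were lower (Prdm6, Tshz3, Zfhx3 and Zfhx4) and 1 higher (Hand2, 186 CPM in Grm8-only and 124 CPM in Ryr3-only nuclei). The transcription factor Sox6, which stands in the glial list, carried that list's sum of 142 CPM in Grm8-only and 440.1 CPM in Ryr3-only nuclei. Of 25 contractile apparatus genes, 1 was lower (Filip1l, 0.653) and 0 were higher, beside 4.76% lower and 3.48% higher over all genes. Many of these counts lay in the 124 nuclei of the sub-cluster numbered 4 below, 63 of which had Ryr3 alone. Without that sub-cluster Zfp804b was at 0.247 (0.0872 to 0.619), Sema3e at 0.184, Nrxn3 at 0.317, P2ry14 at 0.401 and Flrt2 at 0.523. Thsd4 was then at 0.933 and Sox5 at 0.672, inside the bound, and Pdgfc was at 0.361, Sox6 at 0.398, Tshz3 at 0.552 and Cacna1d at 0.652 (0.404 to 1.05). Htr2b was at 0.263 and Chrm3 at 0.489 without it.

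Smooth muscle nuclei of at least 1000 UMIs were thinned and clustered without Grm8 and Ryr3, also after the split had been seen, which gave 6 sub-clusters of 2450 nuclei. Their leading genes describe how they were formed, and they are called by number. Sub-cluster 1 held 1477 nuclei (60.3%) and was led by Pde1c, Gja1, Abi3bp, Dpp10 and Sdk1. Sub-cluster 2 (480 nuclei) was led by Frmpd4, Cnksr2, Htr2b and the galanin receptor Galr2, and by Zg16, of which 1 nucleus held 797 of the 824 UMIs in the sub-cluster. Sub-cluster 3 (278 nuclei) was led by adipocyte transcripts (Car3, Cfd and Fabp4) and had a median of 2009 UMIs. Sub-cluster 4 (124 nuclei) was led by Zfp804b, Sema3e, Bmper and Nrxn3, sub-cluster 5 (62 nuclei) by Kcnab1, Notch3, Slit3 and Inpp4b, and sub-cluster 6 (29 nuclei) by Kcnmb2, Bmpr1b and Limch1.

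The 2 splitting genes, left out of the clustering, differed among the sub-clusters. Grm8 was found in 78.7% of the nuclei of sub-cluster 1, in 42.9% of sub-cluster 2 and in 5.65% of sub-cluster 4. Ryr3 was found in 58.1%, 58.8% and 56.5% of the same 3 sub-clusters. In sub-cluster 4, 63 nuclei had Ryr3 alone, 7 had both and 0 had Grm8 alone. In sub-cluster 5, 16.1% had Grm8 and 8.06% had Ryr3, the lowest share of Ryr3 among the 6, and Notch3 stood at 492 CPM with the vascular genes Itga8 at 408 CPM and Pdgfrb at 195 CPM. In sub-cluster 1, Chrm2 had 1609 CPM and Chrm3 98.3 CPM, against 3337 CPM and 452 CPM in sub-cluster 2. Sub-cluster 2 held 2648 CPM of summed gut lining genes, and 1240 CPM without that nucleus, against 308 to 481 CPM in the other sub-clusters.

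**Figure D4:**
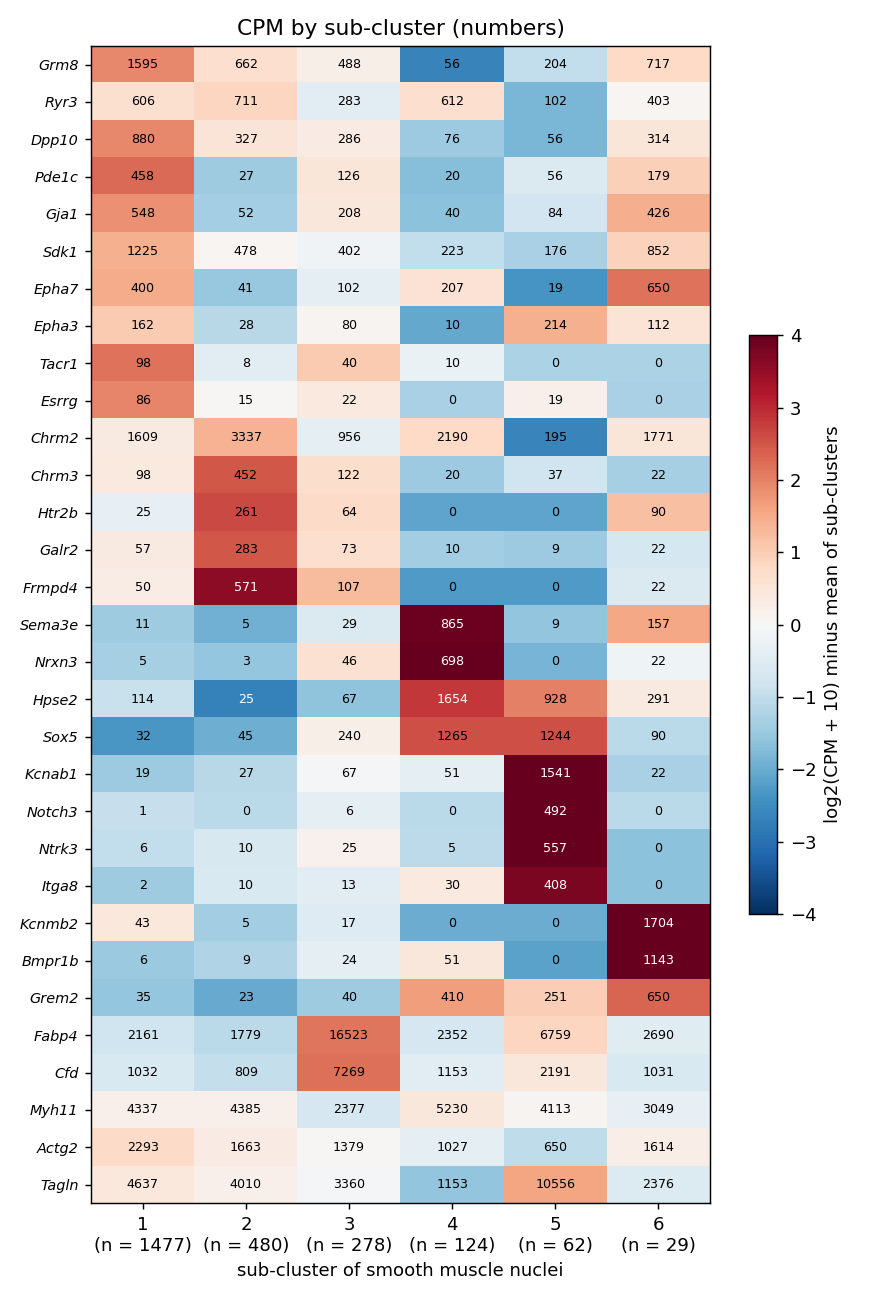
CPM of named genes in the 6 sub-clusters of MWAT smooth muscle nuclei (numbers in cells), coloured by the log2 difference from the mean of the sub-clusters. Grm8 ranges between 1595 CPM in sub-cluster 1 and 56 CPM in sub-cluster 4, while Ryr3 is at 606 and 612 CPM in those 2; Notch3, Itga8 and Kcnab1 are highest in sub-cluster 5.

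The same choice found 81 SWAT, 101 EWAT, 22 NWAT and 4 HWAT nuclei, 208 in all, with a median of 1844 UMIs against 1372 in MWAT. MWAT nuclei had more of muscarinic receptors and positional transcription factors and less of vascular genes. Of 7612 genes with at least 100 counts, 1156 (15.2%) were at least 2-fold higher and 539 (7.08%) at least 2-fold lower in MWAT. The interval lay wholly past 2-fold for 464 and 328 of these. The 100 counts were summed over both sets, of which MWAT gave 4769481 UMIs and the other depots 432137. A gene high in MWAT could thus pass on MWAT counts alone. These shares, and the list counts below to be read beside them, therefore depend in part on this minimum. NWAT and HWAT held under 50 such nuclei, so their counts enter the sum over depots and are given as counts only. Grm8 had 1107 CPM in MWAT and 0 counts in SWAT, EWAT, NWAT and HWAT, at least 159-fold higher in MWAT than the limit of 3 counts over the 4 libraries. Ryr3 had 572 CPM in MWAT, 153 CPM (99.1 to 226) in SWAT, 0 counts in EWAT, 6 counts in NWAT and 0 in HWAT, so that SWAT carried 25 of its 31 counts.

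Chrm2 had 1821 CPM in MWAT and 0 counts in SWAT, EWAT and NWAT, with 3 counts in the 4 nuclei of HWAT (ratio 262, 89.7 to 1272, to the 4 depots summed). Chrm3 had 165 CPM in MWAT, 12.3 CPM in SWAT and 4.75 CPM in EWAT, with 1 count in NWAT and 3 in HWAT (10.2-fold, 4.91 to 25.4). The calcium channel subunit Cacna2d3 had 717 CPM in MWAT and 1 count in the other depots, in NWAT (309.7-fold, 55.5 to 12236). Dpp10 had 605 CPM in MWAT and 2 counts elsewhere, both in EWAT (131-fold, 36.2 to 1080). Pdzrn4, Kcnip1, the Wnt agonist Rspo3, Tmem117, Psd and the adhesion gene Sdk1 were 93.4 to 118-fold higher on 1 to 4 counts elsewhere. Pde1c, Epha7, Grem1, Htr2b and Tacr1 had 0 counts in all 4 other libraries, at least 41.2, 38.7, 20.4, 10.7 and 8.94-fold higher in MWAT. Gja1 had 363 CPM in MWAT and 6 counts elsewhere (26.2-fold), while the vascular connexin Gja4 had 9.85 CPM in MWAT and 296 CPM in the other depots.

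Receptor and cyclic nucleotide genes as a list differed in both directions, with 9 of 26 higher and 8 lower in MWAT and a median log2 ratio of 0.12. The lower 8 included P2rx1, Ednra (27.5 CPM in MWAT and 271 CPM in the other depots, 0.101), Ednrb (0.214), the prostaglandin receptor Ptger3 (0.250), the guanylyl cyclase subunits Gucy1a1 (0.190) and Gucy1a2 (0.0511) and the phosphodiesterase Pde3a (0.368).

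Transcription factors of the muscle list were higher in MWAT for 11 and lower for 2 of 22, with a median log2 ratio of 0.97 against 0.05 over all genes. Hand2, Foxf1 and Nkx2-3, which pattern gut mesenchyme in the embryo, had 700, 304 and 104 counts in MWAT and 1, 1 and 0 counts in the other depots. Meis2 had 1338 CPM in MWAT, 178 CPM in SWAT and 147 CPM in EWAT (6.35-fold), Pbx3 761, 73.5 and 61.8 CPM (11.3-fold) and Foxp2 869, 153 and 162 CPM (6.26-fold). Hand2os1, an antisense-named transcript beside Hand2, was 145-fold higher on 1 count elsewhere. How strands were counted is not given in the sources used here, so its share of reads and that of Hand2 are uncertain. Mef2c (0.296) and Zfhx3 (0.151) were lower in MWAT. Myocd did not pass 2-fold, with 336 CPM in MWAT and 257 CPM in the other depots.

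Of 25 contractile apparatus genes, 4 were higher and 4 lower in MWAT, beside 15.2% higher and 7.08% lower over all genes. The share higher was thus near that of all genes. Des had 503 CPM in MWAT, 61.3 CPM in SWAT and 219 CPM in EWAT (2.83-fold), Pdlim3 1350, 282 and 266 CPM (4.56-fold), and Synm and Smtn were 3.24-fold and 2.35-fold higher. Tagln had 4285 CPM in MWAT, 10697 CPM in SWAT and 11522 CPM in EWAT (0.418), with 204 counts, or 3908 CPM, in the 22 NWAT nuclei, and Ppp1r14a, an inhibitor of myosin phosphatase, 318, 1280 and 1145 CPM (0.294). Ldb3 and Filip1l were also lower. The actins split the same way, with Actg2 at 1928 CPM in MWAT, 147 CPM in SWAT and 532 CPM in EWAT and Acta2 at 4961, 9882 and 10947 CPM. Myh11 differed little, at 4133, 3455 and 3877 CPM.

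Vascular mural genes were lower in MWAT for 11 and higher for 2 of 16, with a median log2 ratio of -2.71. The arterial receptor Notch3 (chromosome 17, 32120820 to 32166852) had 14.3 CPM in MWAT, 692 CPM in SWAT and 879 CPM in EWAT, with 46 counts in NWAT and 4 in HWAT (0.0177). It was found in 1.53% of MWAT, 69.1% of SWAT and 73.3% of EWAT smooth muscle nuclei. The growth factor receptor Pdgfrb had 13.8 CPM in MWAT, 331 CPM in SWAT and 380.1 CPM in EWAT (0.0399). The higher 2 were Abcc9 and Kcnj8, which form a potassium channel gated by ATP, at 388 and 119.7 CPM in MWAT and 74.1 and 18.5 CPM in the other depots. Rgs5, often used to mark pericytes, had 370.5 CPM in MWAT, 42.9 CPM in SWAT and 665 CPM in EWAT. Elastin (Eln) had 108 CPM in MWAT, 631 CPM in SWAT and 1986 CPM in EWAT (0.0737), the ATP-gated channel P2rx1 3.77, 257 and 266 CPM (0.0151) and the integrin Itga8 16.8, 576 and 551 CPM (0.0286). Csmd1 (0.0121) was lowest, but EWAT gave 185 of its 210 counts elsewhere. Timp4, Ntn4, Slc38a11, Cabp1, Map3k7cl and Rasl12 lay at 0.0185 to 0.0304.

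**Figure D5:**
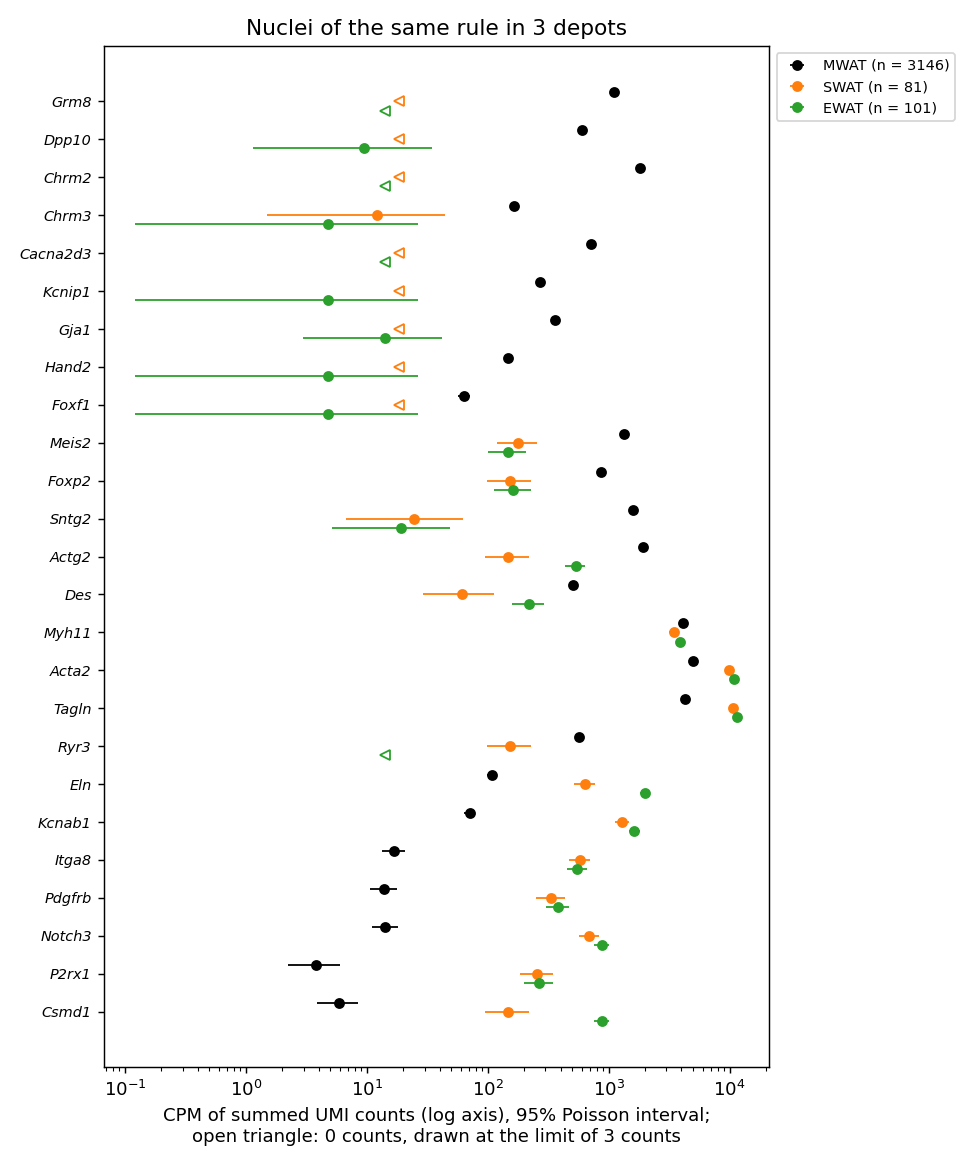
CPM of summed counts on a log axis, with 95% Poisson intervals, in nuclei picked by the same choice in MWAT (black), SWAT (orange) and EWAT (green); open triangles stand for 0 counts, drawn at the limit of 3 counts. Grm8, Chrm2 and Hand2 lie far to the right in MWAT, Notch3, Itga8 and Kcnab1 far to the left, and Myh11 is at 4133, 3455 and 3877 CPM.

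Other transcripts moved with the depot. All 8 gut lining genes with enough counts were at least 2-fold higher in MWAT, beside 15.2% of all genes under the same count minimum. Their list summed to 748 CPM in MWAT smooth muscle nuclei and 30.1 CPM in those of the other depots. Immediate early genes, which answer tissue handling and other stimuli, were lower in MWAT for 7 of 11, with Junb at 47.0 CPM in MWAT, 257 CPM in SWAT and 238 CPM in EWAT. The glial list summed to 244 CPM in MWAT and 845 CPM in the other depots, of which Sox6 made up 220.2 and 838 CPM, while Sox10 and Gfap were between 0 and 3.35 CPM in both. The part of free RNA, handling and library in these differences was not tested.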

How the data were processed

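Nuclei of 5 adipose depots, 1 library each, were measured by droplet-based 3′ RNA sequencing. The authors deposited raw UMI counts per gene and barcode, written by Cell Ranger 6.0.1, per the file headers, on the mm10 build per the submitters' processing notes. Every deposited barcode had at least 500 UMIs, so the files had been filtered before deposit. Nuclei needed at least 200 genes and at most 10% mitochondrial counts. The members and the 26 gene lists were chosen with earlier results of these data known.

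Counts were summed over the nuclei of a set and scaled to CPM, with exact Poisson intervals. Ratios of 2 sums carry exact conditional binomial intervals, and shares carry Clopper-Pearson intervals, all at 95%. With 1 library per depot no test between groups was run. A gene was counted as higher or lower past 1.5-fold within the smooth muscle nuclei, or past 2-fold against other nuclei, with at least 100 summed counts. For a sum of 0, the limit was 3 counts. The genes named were the 10 highest and 10 lowest whose interval lay wholly past the fold (models named Gm or Rik left out), the genes of the choice, and examples from the lists. Further list members, and the per-depot values beside them, were picked after their values were seen. To compare shares at 1 depth, nuclei were thinned to 1000 UMIs. Doublets were scored against simulated ones at 0.8% per 1000 nuclei, which marked 448 smooth muscle nuclei (14.2%). They were kept, and leaving them out was an alternative. Sub-clusters came from Leiden clustering of thinned counts. The count ratios were run on simulated data with 200 of 7164 genes changed 2-fold. There 95.3% of intervals held the true ratio, 95.5% of changed genes passed 1.5-fold and 2.20% of unchanged genes did. The simulated sums came from the Poisson model that the intervals assume, so this checks the arithmetic only. Spread between nuclei was not simulated, and the intervals do not cover it. Python 3.11.15, numpy 2.4.6, scipy 1.17.1, pandas 2.3.3, scikit-learn 1.9.0, leidenalg 0.10.2 and matplotlib 3.10.9 were used. A few genes are not reported here.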

Additional observations from a re-analysis of the deposited data

How the results depend on the processing

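The share of MWAT nuclei chosen was 14.6% with at least 10 contractile UMIs and 12.4% with 0 UMIs of the other-cell genes. The share with Grm8 or Ryr3 was 77.2% with at least 10 contractile UMIs, 76.7% with at most 2% mitochondrial counts and 70.1% after thinning to 1000 UMIs. Genes higher and lower in positive nuclei numbered 344 and 448 with at most 2% mitochondrial counts, 253 and 387 after thinning, 294 and 468 when split on Grm8 alone, 140 and 426 when split on Ryr3 alone, and 1137 and 1608 from 30 counts. Without sub-clusters 3 and 5, an alternative added after the data were seen, they numbered 356 and 430, with unclustered nuclei kept in. Between depots, 2019 genes were higher and 1109 lower in MWAT from 30 counts. Between Grm8-only and Ryr3-only nuclei, 74 were higher and 98 lower after thinning, and 113 lower with 0 other-cell UMIs. Without the nucleus richest in gut lining UMIs, also added later, Spink4 turned to 1.05. The cause was not tested in these cases, beyond what fewer nuclei, genes or counts give by construction. The gene numbers given here are not shares. Settings that changed the nuclei, the UMIs or the count minimum also changed how many genes had enough counts. No paired analysis was possible because each depot was 1 library. Shallow nuclei and the 208 nuclei of other depots limit what low genes can show.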
